A study of Mus musculus with 6 samples.

Results

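The nuclei described here are those that the deposited annotation of a mouse suprachiasmatic nucleus (SCN) atlas names immature astrocytes/ependymal cells. They were taken by that name alone, and they number 1264 of 22796 annotated nuclei. The SCN is the hypothalamic nucleus that holds the central circadian clock. Single-nuclei RNA sequencing was performed on micro-dissected SCN of wild-type (WT) C57BL6/J mice at gestational day (GD) 17.5 and at postnatal days (PND) 2, 10 and 30. The 6 libraries were 1 each at GD17.5 and PND2 and 2 each at PND10 and PND30. Tissue of 10 fetuses or pups, males and females from different mothers, was pooled per stage, and the dams had been left undisturbed. According to the methods, the later stages went through preparation and sequencing a further time after a first run, and the libraries of a stage may thus share tissue. The spread between them then measures technical rather than animal variation.

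Astrocytes and the ciliated ependymal cells that line the ventricles both descend from radial glia, the neural stem cells of the embryonic brain. Radial glia and immature astrocytes express the intermediate filament vimentin (Vim) and the glutamate-aspartate transporter GLAST (Slc1a3), and maturing astrocytes take on glutamate clearance, gap junction coupling and the water channels of their endfeet. The same progenitor pool also gives rise to NG2 cells, the oligodendrocyte progenitor cells (OPCs). The SCN lies beside the third ventricle, so that ependymal cells of its wall can enter a dissection. The count tables used here carry no gene names on their rows, and the level of Vim, Slc1a3 or any other marker was therefore not checked. Each row is called a feature below, and cell classes are described by lists of features that were built from the annotated PND30 nuclei.

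Each nucleus was traced to its library by its barcode. All 1264 nuclei could be placed, and 0 of their barcodes occurred in the cluster in more than 1 library. Annotated nuclei held 10921890 to 31389145 UMIs (unique molecular identifiers, 1 per captured transcript) per library. The cluster itself gave 2551443 UMIs (GD17.5) and 3867401 UMIs (PND2). It held 967206 in replicate 1 of PND10 and 23487 in replicate 2. The median nucleus of the cluster held 3895 UMIs at GD17.5, 4517.5 at PND2, 7139 in PND10 replicate 1 and 3570 in PND10 replicate 2. In each library this lay below the median of the other nuclei, which was 5098.5, 4934, 8471 and 4551 UMIs, respectively. When every nucleus was thinned at random to 1500 UMIs, the median number of detected genes was 1057.5, 1072, 1098 and 1078. NG2 cells/OPCs thinned in the same way had 1070, 1004, 1006 and 1021 genes, so that the ratio of the clusters was 1.05 ± 0.054 (SD, n = 3 libraries with at least 20 nuclei of the cluster). Nuclei with more than 3 times the median UMIs of their own set were more frequent in the cluster, with 7.16%, 6.02% and 7.69% in these libraries against 4.26%, 2.27% and 3.02% of the other nuclei. The part of joined nuclei in this was not tested, beyond the doublet filter of the authors.

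The cluster was most frequent around birth and was not found at PND30. It held 489 of 4921 nuclei at GD17.5 (9.94%, 95% Clopper-Pearson interval 9.11% to 10.8%) and 664 of 5555 at PND2 (12.0%, 11.1% to 12.8%). At PND10 the libraries stood far apart. Replicate 1 held 104 of 1361 nuclei (7.64%, 6.29% to 9.18%) and replicate 2 held 7 of 4714 (0.148%, 0.0597% to 0.306%). At PND30, 0 of 771 and 0 of 5468 nuclei belonged to the cluster, and the same interval allows shares of up to 0.477% and 0.0674%. Intervals and limits cover counting error only. The PND10 mean of 3.89% ± 5.30 (SD, n = 2) differed from PND30 with p = 0.333 in an exact two-sided permutation test, the smallest p that 2 libraries against 2 can give. GD17.5 and PND2 had 1 library each and were not tested. The PND10 libraries thus lay further apart than GD17.5 and PND2. What set them apart was not tested.

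**Figure D1:**
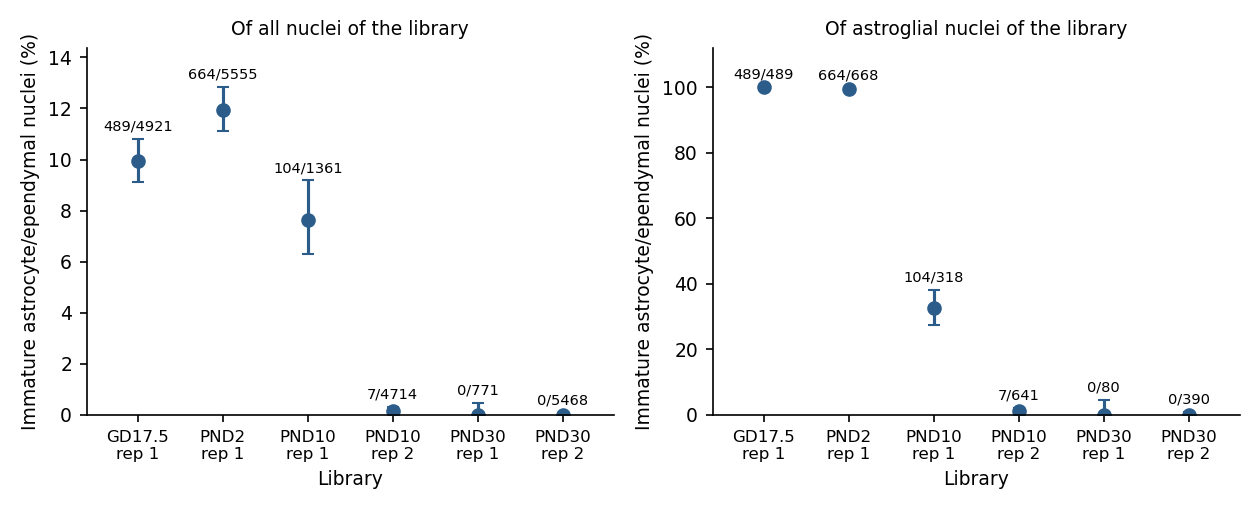
Immature astrocyte/ependymal nuclei as a percentage of all annotated nuclei (left) and of astroglial nuclei (right) in each of the 6 libraries, with 95% Clopper-Pearson intervals and the counts printed above. The cluster makes up all 489 astroglial nuclei at GD17.5 and 104 of 318 in PND10 replicate 1, but 7 of 641 in PND10 replicate 2 and 0 in both PND30 libraries.

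Set against mature astrocytes only, the shares ran from all astroglial nuclei to none. The cluster made up 489 of 489 astroglial nuclei at GD17.5 and 664 of 668 at PND2 (99.4%). It made up 104 of 318 (32.7%) and 7 of 641 (1.09%) in the PND10 libraries, and 0 of 80 and 0 of 390 at PND30. Mature astrocytes numbered 214 in PND10 replicate 1 and 634 in replicate 2. Among non-neuronal nuclei, the cluster held 79.0% at GD17.5, 73.3% at PND2, 23.4% in PND10 replicate 1 and 0.695% in PND10 replicate 2.

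How far these nuclei carried the astrocyte program was read from 541 features that were at least 4 times higher in mature astrocytes than in all other nuclei of both PND30 libraries. PND30 holds no nucleus of the cluster, so that the list did not use its values. The features were chosen for high levels in mature astrocytes, however, so that a level below theirs was largely set by the choice. These features took 7.81% of the cluster's UMIs at GD17.5, 9.43% at PND2, and 7.60% and 10.6% in the PND10 libraries. Mature astrocytes spent 14.6% and 14.9% of their UMIs on them at PND10, and 15.1% and 17.6% at PND30. Neurons spent 1.27% to 1.49% and NG2 cells/OPCs 3.20% to 4.97% in the libraries that hold the cluster. The cluster was thus above neurons and OPCs in each of these libraries, and below mature astrocytes where these were present. Its level was 0.522 times that of mature astrocytes in PND10 replicate 1 and 0.714 times in replicate 2. The median nucleus stood at 7.47% at GD17.5, 9.46% at PND2 and 7.42% in PND10 replicate 1.

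Single nuclei overlapped with mature astrocytes to an extent that differed between libraries. The lowest 5% of mature astrocytes of PND10 replicate 1 lay under 10.5%. Of the immature nuclei, 10 of 489 (2.04%) reached that value at GD17.5, 212 of 664 (31.9%) at PND2 and 2 of 104 (1.92%) in the same PND10 library. In PND10 replicate 2 it was reached by 5 of 7. With the mature astrocytes of PND10 replicate 2 as the reference, whose lowest 5% lay under 11.6%, the numbers were 3 of 489 (0.613%), 91 of 664 (13.7%), 0 of 104 and 1 of 7. The 4 nuclei annotated as mature astrocytes at PND2 took 13.7% of their UMIs from the list, above the PND2 cluster as a whole. With the list built from PND30 replicate 1 alone, the cluster stood at 10.96% at PND2 and 10.98% in PND10 replicate 1, so that the lower level at PND10 depended on the list.

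**Figure D2:**
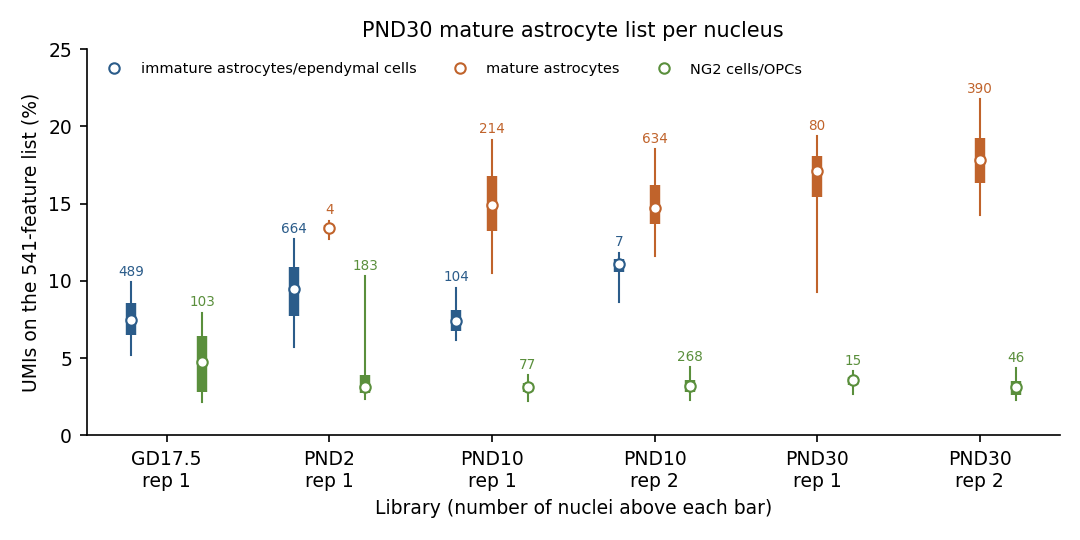
Percentage of a nucleus's UMIs on the 541 features that mark mature astrocytes at PND30, by library. Circles are medians, thick bars run from the 25th to the 75th percentile and thin bars from the 5th to the 95th. The numbers above count nuclei, and the median immature nucleus of PND10 replicate 1 (7.42%) lies near that of GD17.5 (7.47%) and below the mature astrocytes of its own library (14.9%).

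Lists of other classes, built in the same way, were low in the cluster. The 209 features of mature oligodendrocytes took 2.50%, 2.45%, 2.03% and 2.17% of its UMIs in the order GD17.5, PND2, PND10 replicate 1 and PND10 replicate 2. The 79 features of microglia took 0.649%, 0.723%, 0.597% and 0.668%. The 445 neuronal features took 2.73%, 2.90%, 3.17% and 2.99%, against 10.6%, 12.5%, 13.4% and 14.1% in neurons of the same libraries. In mature astrocytes of PND10 the neuronal list stood lower, at 1.96% and 1.75%. With features at least 8 times higher in neurons at PND30, the neuronal list took 0.574%, 0.607%, 1.04% and 0.336% in the cluster, so that its libraries lay further apart.

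The NG2/OPC list was compared in both clusters. Its 120 features took 5.16% of the cluster's UMIs at GD17.5, 4.13% at PND2, and 2.52% and 3.09% in the PND10 libraries. In nuclei annotated as NG2 cells/OPCs the same features took 6.70% at GD17.5, 9.63% at PND2, and 11.8% and 11.3% at PND10. The clusters thus lay closer together on this list before birth than at PND10, as the cluster fell and OPCs rose. The list was chosen for high levels in OPCs at PND30, so that the rise in OPCs was largely set by that choice. Early SCN neurons took 4.06% at GD17.5 and 3.71% at PND2, not far below the cluster. At PND10 the cluster stood below mature astrocytes as well, which had 3.54% and 3.79%.

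The position of the nuclei in expression space was compared next. For each nucleus, thinned to 1500 UMIs, the 20 nearest nuclei of its library were found over 30 principal components. At GD17.5, 89.7% of the neighbours of an immature nucleus belonged to its own cluster and 8.96% were NG2 cells/OPCs, which made up 2.12% of the nuclei. At PND2 these shares were 94.8% and 4.61%. Seen from the other side, 43.1% of the neighbours of OPC nuclei belonged to the immature cluster at GD17.5, 19.9% at PND2 and 0% in PND10 replicate 1. In PND10 replicate 1, 96.9% of neighbours came from the cluster itself and 2.12% were mature astrocytes. The 7 nuclei of PND10 replicate 2 did not form a group of their own. Of their neighbours 92.1% were mature astrocytes and 7.86% were each other, and for all 7 most neighbours were mature astrocytes. A nucleus of that library can have at most 6 neighbours in the cluster, so that the shares of the PND10 libraries are not on equal terms.

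**Figure D3:**
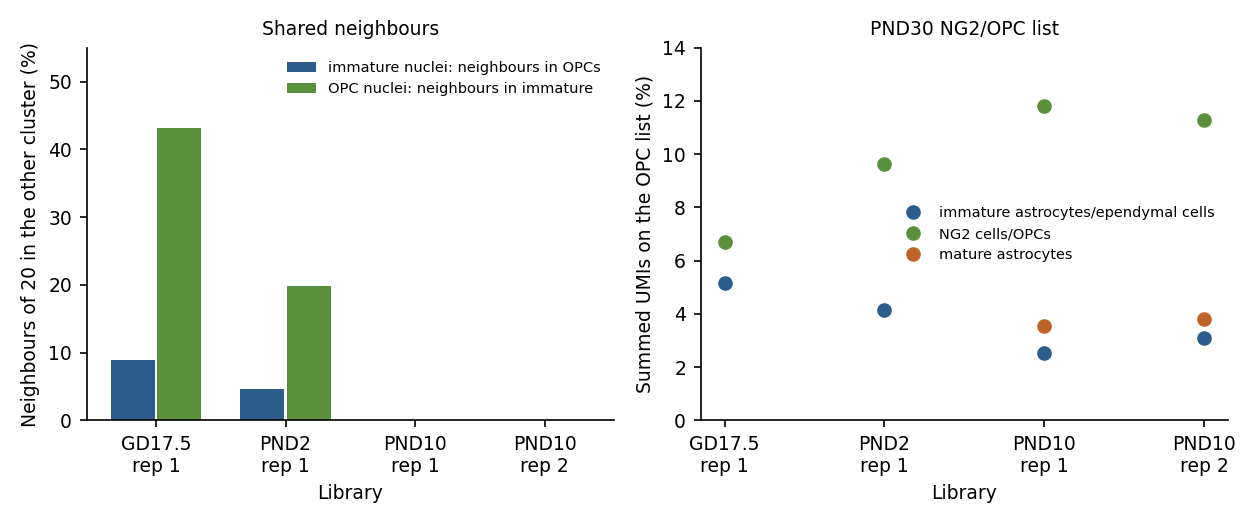
Left, the percentage of the 20 nearest neighbours that lie in the other cluster, for immature nuclei (blue) and NG2/OPC nuclei (green) of each library that holds the cluster. Right, the percentage of summed UMIs on the 120 features that mark NG2 cells/OPCs at PND30, with mature astrocytes shown at PND10 only, and the clusters lie at 5.16% and 6.70% at GD17.5 but at 2.52% and 11.8% in PND10 replicate 1.

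Leiden clustering divided the cluster. Its 1242 nuclei with at least 1500 UMIs fell into 7 groups of 288, 227, 216, 194, 181, 88 and 48 nuclei, numbered by size. No group could be assigned to astrocytes or to ependymal cells, since this needs named markers. Group 1 held 259 of the 657 PND2 nuclei (39.4%) but 26 of 474 at GD17.5 (5.49%). It had the highest astrocyte list of the groups, with a median of 10.96%, and 36 of the 93 features that were at least 4-fold higher in it than in the other groups belonged to that list. Group 2 held 40.5% of the GD17.5 nuclei and 5.33% of the PND2 nuclei. Its astrocyte list was the lowest, at 6.41%, and 0 of its 56 leading features belonged to the list. It also had the lowest median depth of the groups, with 3250 UMIs per nucleus before thinning. For comparison, the astrocyte list held 515 of the 12537 features tested for stage in the cluster below, at another filter on counts. Its share under the filter used for the groups was not computed.

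Groups 6 and 7 came from GD17.5 alone, where they held 18.6% and 10.1% of the nuclei. They carried the highest levels of the NG2/OPC list, with medians of 6.61% and 7.26%, against 2.68% to 5.17% in the other 5 groups. Their neighbours were nonetheless 3.75% and 5.73% OPC nuclei. The GD17.5 nuclei with the most OPC neighbours were those of group 1 (17.7%) and group 2 (15.9%), whose OPC list was lower. A high level of OPC features and a position beside the OPC nuclei were thus found in different groups. Group 5 was shared by GD17.5 (15.8%) and PND2 (16.1%), and group 3 held 8.86% and 25.4% of these nuclei.

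Group 4 was the group of PND10 replicate 1. It held 100 of the 104 nuclei of that library (96.2%), 90 of 657 at PND2 (13.7%), 3 of 474 at GD17.5 and 1 of 7 in PND10 replicate 2. Its astrocyte list had a median of 7.07%, and its OPC list of 2.68% was the lowest of all groups. It had 193 features at least 4-fold higher than in the other groups, and 18 of these belonged to the astrocyte list. Such counts were taken before thinning, among features with at least 20 UMIs, and thus depend on depth and group size. The PND10 replicate 1 nuclei of group 4 had a median of 7051.5 UMIs. The groups were found on the same counts, so that the counts do not rank how distinct the groups are. The 18 of 193 can be set against the 515 of 12537 given above, at another filter on counts. Within group 4, the PND2 nuclei had median levels of 6.81% on the astrocyte list and 3.00% on the OPC list, near the 7.37% and 2.41% of the PND10 nuclei. The immature nuclei of PND10 replicate 1 were thus placed with a minority of the PND2 nuclei, and the PND2 groups with more of the astrocyte list had no member there (groups 1 and 5) or 4 nuclei (group 3).

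**Figure D4:**
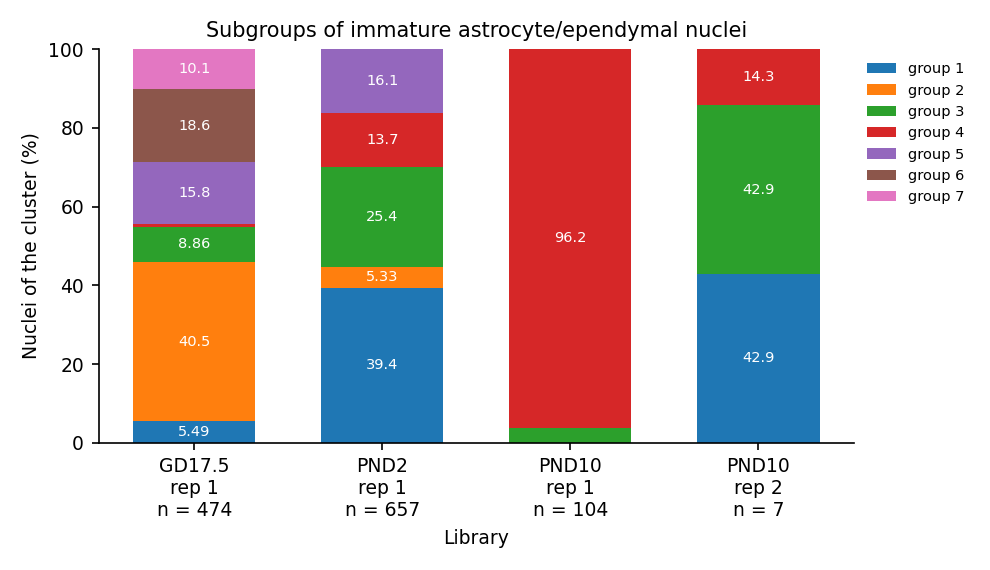
Composition of the cluster in each of the 4 libraries that hold it, as the percentage of its nuclei in 7 groups found by Leiden clustering of nuclei thinned to 1500 UMIs. Groups 6 and 7 appear at GD17.5 only, and group 4 holds 13.7% at PND2 and 96.2% in PND10 replicate 1, whereas the 7 nuclei of PND10 replicate 2 fall in groups 1, 3 and 4.

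A common set of features was high in the cluster at GD17.5, PND2 and PND10 replicate 1, though most features high at GD17.5 were not among it. Compared with all other nuclei of the library, 904 features were at least 4-fold higher in the cluster at GD17.5, 8.08% of those with at least 20 UMIs. This number was 1196 at PND2 (9.46%) and 623 in PND10 replicate 1 (7.69%). The annotation rests on the same counts, so that these numbers describe the cluster and were not tested. The GD17.5 and PND2 sets shared 699 features, 77.3% of the first and 58.4% of the second. PND2 and PND10 replicate 1 shared 421, which is 35.2% and 67.6%. All 3 libraries shared 260 features, and 86 of these (33.1%) were in the mature astrocyte list. That list held 515 of the 12537 features tested for stage below, at another filter on counts. Not every feature could be shared, since 11192 had at least 20 UMIs at GD17.5 and 8104 in PND10 replicate 1. The other nuclei also differed, with 0 mature astrocytes at GD17.5 and 214 in PND10 replicate 1. A feature outside the overlap was therefore not shown to be lost from the cluster. The 260 took 4.15%, 4.28%, 5.98% and 4.76% of the cluster's UMIs in the order used above. They took 2.28%, 1.47%, 0.954% and 0.916% in NG2 cells/OPCs. Mature astrocytes spent 3.00% and 2.54% on them at PND10 and 3.38% and 2.40% at PND30. The set was chosen for high levels in the cluster at GD17.5, PND2 and PND10 replicate 1. Its higher share of UMIs in the cluster of those libraries was therefore largely set by the choice. PND10 replicate 2 did not enter the choice. Much of the set was high in mature astrocytes too. Relative to the other nuclei of their library, immature nuclei included, mature astrocytes were at least 4-fold higher for 85 of the 260 features in PND10 replicate 1 and for 184 in PND10 replicate 2. At PND30 this held for 222 features (replicate 1) and 170 features (replicate 2), with median folds of 14.6 and 7.92.

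Side by side in PND10 replicate 1, immature and mature nuclei differed widely. At 967206 UMIs for each, 248 of 9029 features (2.75%) were at least 4-fold higher in the immature nuclei and 400 (4.43%) at least 4-fold lower. Of the 518 features of the astrocyte list that could be compared, 6 were higher and 169 lower by that measure, 1.16% and 32.6%. The list was chosen for high levels in mature astrocytes at PND30, so that this direction was largely set by the choice. Both sums came from 1 library, and no test was possible.

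Likeness of the summed profiles was measured as Pearson's r of log2(CPM + 1) (CPM, counts scaled to an equal total per profile) over 8013 features with a mean of at least 20 CPM, with 60967 UMIs per profile. These are correlations across features, which are not independent replicates. At GD17.5 the cluster was about as like the OPCs of its own library (r = 0.573) as the cluster at PND2 (0.563). The PND2 cluster was about as like mature astrocytes of PND10 (0.554 and 0.550) as the cluster of PND10 replicate 1 (0.553), and less like the OPCs of its own library (0.487). The cluster of PND10 replicate 1 was more like the cluster at PND2 (0.553) than the mature astrocytes with which it shared a library (0.509).

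Between GD17.5 and PND2 more features of the cluster than of the other clusters compared differed by at least 4-fold, but not by at least 2-fold. At 547317 UMIs for each sum, 198 of 6225 features (3.18%) differed by at least 4-fold, 123 higher (1.98%) and 75 lower (1.2%) at PND2. The same count was 131 (2.16%) in OPCs, 96 (1.72%) in early SCN neurons and 34 (0.620%) in Vip+ neurons. At 2-fold, 1042 of 6065 features (17.2%) differed in OPCs and 1020 of 6225 (16.4%) in the cluster. With 1 library per stage this has no replicate check. Of the astrocyte list, 40 of 382 features were at least 4-fold higher and 5 lower at PND2, with a median log2 difference of 0.56 against -0.04 over all features. From PND2 to PND10 replicate 1, 315 of 6437 features of the cluster (4.89%) differed by at least 4-fold, 141 higher (2.19%) and 174 lower (2.7%). This compares with 131 (2.32%) in OPCs and 85 (1.56%) in Vip+ neurons. Here 16 features of the astrocyte list were higher and 55 lower of 404, with a median log2 difference of -0.21. In OPCs 1 feature of that list was higher and 28 lower of 254, with a median of -0.59 against -0.06 over all features. The fall was thus not particular to the cluster. The PND10 libraries differed from each other in 118 features (1.93%) of mature astrocytes, 17 (0.302%) of OPCs and 7 (0.131%) of Vip+ neurons. Mature astrocytes of PND10 replicate 1 and PND30 replicate 1 differed in 117 features (1.86%), no more than those of the PND10 libraries.

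Stage was tested on UMIs summed per library, with the PND10 libraries against GD17.5 and PND2 together. The sums held different nuclei, since group 4 made up 96.2% of PND10 replicate 1, 13.7% of PND2 and 0.633% of GD17.5. A change with stage therefore cannot be told apart from a change in which nuclei were summed. This also holds for the lists and the interaction test below. In edgeR's quasi-likelihood test, 455 of 12537 features (3.63%) passed a Benjamini-Hochberg adjusted p of 0.05, 196 higher (1.56%) and 259 lower (2.07%) at PND10. At an unadjusted p under 0.05 there were 1480. The test rests on an unequal pair, since a tested feature had a median of 30 UMIs in PND10 replicate 1 and of 1 in PND10 replicate 2. Of the 455 called features, 205 had 0 UMIs in PND10 replicate 2. Replicate 1 lay on the called side of the earlier mean for all 455 and replicate 2 for 360. For replicate 2 these were 253 of the 259 called lower and 107 of the 196 called higher. A count of 0 lies on the lower side, so that the 253 were largely set by the low depth of replicate 2. Without PND10 replicate 1 or without PND10 replicate 2, 0 features passed, with 987 and 1448 at an unadjusted p under 0.05. DESeq2 called 16 features, with 415 at an unadjusted p under 0.05. Without GD17.5 edgeR called 137. The same test called 211 of 9516 features (2.22%) in OPCs, 0.557% higher and 1.66% lower, and 670 of 12932 (5.18%) in Vip+ neurons, and these fell to 0 and 280 without PND10 replicate 2.

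Among called features, the OPC list leaned one way. Of the 114 members tested in the cluster, 19 were called lower at PND10 and 1 higher, with a median log2 change of -0.80 against -0.08 over all features. Without PND10 replicate 2, 0 of these passed and the median was -0.89, against -0.03 over all features. In OPC nuclei, 12 of 120 were called higher and 0 lower, with a median of 0.76. That direction was largely set by choosing the list for high levels in OPCs at PND30. Of the astrocyte list, 51 of 515 were called lower and 30 higher in the cluster, with a median of -0.16. Its direction depended on the earlier library, since without PND2 54 were higher and 34 lower with a median of 0.15, and without GD17.5 1 was higher and 28 lower. In OPCs 43 of 381 features of the astrocyte list were called lower and 2 higher, with a median of -0.36. Of the neuronal list, 18 of 276 were called lower and 4 higher in the cluster. The median log2 change was -0.16 against -0.08 over all features. Over all tested features 2.07% were called lower and 1.56% higher.

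Whether the clusters changed differently was tested by the interaction term of cluster and stage, and the libraries entered as blocks. In edgeR's quasi-likelihood test the change to PND10 differed between the cluster and OPCs for 441 of 11872 features (3.71%), 135 more positive (1.14%) and 306 more negative (2.58%) in the cluster. Of the 120 features of the OPC list, 45 were called more negative and 0 more positive in the cluster, with a median log2 difference of -1.59 against -0.08 over all features. The list was chosen for high levels in OPCs at PND30, and 113 of its 120 features were above 0 in the OPC change itself, so that this direction was largely set by the choice of the list. Of the 506 tested features of the astrocyte list, 32 were called more positive and 33 more negative. The count fell to 0 without GD17.5, to 32 without PND2, to 0 without PND10 replicate 1 and to 246 without PND10 replicate 2, and DESeq2 gave 114.

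Of the features that passed, had at least 50 UMIs in the cluster and moved the same way at each step, the largest changes in each direction are given here by matrix row. The feature in matrix row 714 had 0 UMIs at GD17.5, 6 at PND2 and 78 and 2 in the PND10 libraries, or 0, 1.55, 80.6 and 85.2 CPM. The log2 change was 6.23 (edgeR adjusted p = 8.2e-15). Both PND10 libraries lay above both earlier ones, but the 2 UMIs of replicate 2 came from 1 of 7 nuclei. They lie under the 127.7 CPM that 3 UMIs would be there, so that replicate 2 adds little to replicate 1. In PND10 replicate 1 the feature was found in 23 of 104 immature nuclei (22.1%) and in 1 of 214 mature astrocytes. The feature in row 21539 had 2, 51, 329 and 0 UMIs, or 0.784, 13.2, 340.2 and 0 CPM. Here 3 UMIs in PND10 replicate 2 would be 127.7 CPM, and the log2 change of 4.88 rests on replicate 1, where 80 of 104 nuclei (76.9%) had a UMI. In mature astrocytes of the same library it stood at 7.63 CPM, with a UMI in 7 of 214 nuclei (3.27%) at a median depth of 7326 UMIs against 7139.

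The feature in row 16675 had 275 UMIs at GD17.5 and 70 at PND2, or 108 and 18.1 CPM, and 0 in both PND10 libraries. Taken as 3 UMIs over both PND10 libraries, this is at least 17.7-fold lower than the 53.7 CPM of the earlier libraries together. It was also lower at PND2 than at GD17.5 in early SCN neurons, with 37.6 and 11.7 CPM. In OPCs it stood at 38.3 CPM at GD17.5, 9.78 at PND2, and 3.65 and 5.88 in the PND10 libraries. The feature in row 19372 had 200 and 46 UMIs, or 78.4 and 11.9 CPM, and 0 in both PND10 libraries, at least 12.7-fold lower. It stayed at 4.11 and 4.98 CPM in mature astrocytes of PND10. In OPCs it had 9 UMIs at GD17.5 (15.7 CPM), 3 at PND2 (3.26 CPM) and 0 in both PND10 libraries. The edgeR adjusted p-values were 8.4e-08 and 2.5e-06, and 0 UMIs of 23487 in replicate 2 allow up to 127.7 CPM. Without PND10 replicate 2, none of the 4 named features passed in edgeR. DESeq2 called row 714 (adjusted p = 0.00034) and not the others, with adjusted p of 1.00 for row 21539, 0.834 for row 16675 and 1.00 for row 19372. Without GD17.5, edgeR no longer called rows 16675 and 19372 (adjusted p = 0.052 and 0.385).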

How the data were processed

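UMI counts of nuclei from 6 libraries were used as the authors deposited them, without normalization. Per the labels and methods, the authors used 10x Genomics 3′ chemistry, Cell Ranger 5.0.1 and mm10, kept nuclei with at least 750 UMIs and 500 to 10000 genes under limits on mitochondrial and ribosomal reads, removed doublets by score and named clusters in Seurat 4. Doublets were not called again. The annotation gives the stage by a suffix, which was matched to the stage that listed over 99% of its barcodes.

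Lists took features with at least 20 UMIs in the class in both PND30 libraries. Thinning drew UMIs without replacement, and 22 nuclei of the cluster under 1500 UMIs were left out of groups and neighbours. Groups used Leiden clustering (leidenalg 0.10.2, resolution 0.5, 15 neighbours, 30 components of 2000 variable features, scikit-learn 1.9.0). Summed counts were tested with edgeR 4.0.16 (quasi-likelihood, TMM, filterByExpr) in R 4.3.3. DESeq2 1.42.0 was an alternative. Other steps used Python 3.11.15, numpy 2.4.6 and scipy 1.17.1. Scripts were tested on simulated data. Pooling GD17.5 and PND2 as 1 arm treats their difference as spread. Depth ranged from 23487 to 3867401 UMIs per sum, and this limits every count test.

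Members and lists were chosen with earlier results of these data known. Matrix rows were named by a rule of at most 2 features in each direction with the largest changes among those that passed, had at least 50 UMIs and moved the same way from GD17.5 to PND2 to PND10 replicate 1. Alternatives changed denominators, depth, list folds, normalization, filters, pseudocount, clustering settings and neighbours, or left out a library. Likeness over every matrix row and the leave-outs of PND10 replicate 2 in OPCs and Vip+ neurons were chosen after seeing the data, as was the CPM minimum for likeness.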

Additional observations from a re-analysis of the deposited data

Results flagged for a closer look

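The change from the earlier stages to PND10 differed between the immature cluster and NG2 cells/OPCs for 441 features in edgeR's interaction test. Without PND10 replicate 2, which holds 7 nuclei of the cluster, 246 were called. Without PND10 replicate 1 or without GD17.5 it was 0, and without PND2 it was 32.

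Barcodes without annotation were not part of any comparison. They were scored on the 163 features that were at least 4-fold higher in the immature nuclei of PND10 replicate 1 than in its other nuclei and in its mature astrocytes. The value used was 2.51% of UMIs, the 5th percentile of the annotated immature nuclei of PND10 replicate 1. Among barcodes within the UMI and gene limits but without annotation, 30 of 1304 in that library reached it (2.30%, 95% Clopper-Pearson interval 1.56% to 3.27%). In PND10 replicate 2, 3 of 2001 did (0.150%, 0.0309% to 0.438%), and at GD17.5 and PND2 24 of 4187 and 19 of 11838 did. At PND30 it was 0 of 710 and 0 of 1619, and the same interval allows up to 0.518% and 0.228%. Of the annotated mature astrocytes, 1 of 214 and 0 of 634 reached the value at PND10 and 0 of 80 and 0 of 390 at PND30. The 1 of 214 was largely set by the choice of features, which used the mature astrocytes of that library. Of the annotated immature nuclei of PND10 replicate 1, 98 of 104 reached the value, which was fixed in advance because it is their own 5th percentile. It was reached by 87 of 489 (17.8%) at GD17.5, 193 of 664 (29.1%) at PND2 and 3 of 7 in PND10 replicate 2. Of the OPCs at GD17.5, 9 of 103 (8.74%) did. The score therefore misses most of the cluster outside PND10 replicate 1, and a low count or a 0 in another library does not show that such nuclei are absent there. The limits on mitochondrial and ribosomal reads and on the doublet score could not be applied, as they need gene names or the authors' scores.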

How the results depend on the processing

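PND10 replicate 2, with 7 nuclei, and the single libraries of GD17.5 and PND2 limit what can be said of stage. Of 46 alternative values of the main results, 24 were labelled as the same. This meant a kept call, a value within the spread between libraries, or a count within 1.5 times. The alternatives of the share of the cluster and of its share of astroglia could not have been labelled otherwise. Those of profile likeness were all labelled as moved without such a rule. The number 24 is therefore not a measure of robustness.

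The PND10 minus PND30 share of 3.89 percentage points was the same with the replicate block (p = 0.5, the smallest possible in the exact paired test). It ranged from 0.148 to 7.64 with 1 library left out, and was 12.0 among non-neuronal nuclei and 3.82 with at least 3000 UMIs. The immature share of astroglia, a mean of 16.9% at PND10, was 1.09% without replicate 1 and 32.7% without replicate 2. No paired analysis was possible for the stage tests within a cluster because GD17.5 and PND2 have 1 library each, whereas the interaction pairs the clusters within each library. The PND10 ratio of immature to mature astrocytes on the astrocyte list, 0.618, was 0.755 with the list from PND30 replicate 1 and 0.640 with that from replicate 2.

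The 455 features of the stage test became 16 with DESeq2, 798 with stage order as a numeric term (463 higher, 335 lower), and 0 to 641 with 1 library left out. The edgeR count of 641 was reached without PND2, with 391 higher. In OPCs 211 became 0 without PND10 replicate 2. In Vip+ neurons 670 became 328 with equal numbers of nuclei and 280 without PND10 replicate 2. The interaction count of 441 became 114 with DESeq2 and 0 to 246 with 1 library left out. The GD17.5 to PND2 count of 198 was 1020 at 2-fold, 57 at 8-fold and 89 with at least 50 UMIs.

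For PND10 replicate 1, r with the PND2 cluster minus r with its own mature astrocytes was 0.0444, and it was 0.0559 with log2(CPM + 10), 0.0503 as Spearman's rho and 0.0271 over every matrix row. The number of groups ran from 5 to 10, and the share of PND10 replicate 1 in its largest group was 100% at resolution 0.25 and 80.8% with 10 components. The log2 change of row 21539 ran from -6.99 to 7.84 with 1 library left out, and it reversed without PND10 replicate 1, since replicate 2 had 0 UMIs of it. For the 4 named features, 19 of 31 alternatives kept the call, and without PND10 replicate 2 none did.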
